A study of Mus musculus with 8 samples.

Results

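Collagen is modified, folded and cross-linked after its chains are made, and 10 genes for enzymes and a chaperone of these steps were examined in cultured dermal fibroblasts with and without *Tgfb1*. They were chosen by gene symbol: the lysyl oxidases *Lox*, *Loxl1*, *Loxl2*, *Loxl3* and *Loxl4*, the lysyl hydroxylases *Plod1* and *Plod2*, the prolyl hydroxylase subunits *P4ha1* and *P4ha2*, and *Serpinh1*, which encodes the chaperone HSP47. All 10 symbols had a row among the 15111 genes of the table. The cells were primary fibroblasts from the skin of adult mice, and 4 libraries of messenger RNA were sequenced for each of 2 genotypes. TGFβ1FKO mice (Tgfb1fl/fl:Col1a2-CreERT) carry floxed *Tgfb1* alleles and a Cre recombinase that tamoxifen activates, whereas control mice (Tgfb1fl/fl) carry the floxed alleles and no Cre. Mice of both genotypes were fed tamoxifen, and cells of both were grown on fibronectin without serum for 72 h. Before that, per the methods of the study, the isolated cells were cultured in medium with serum. The Cre is driven by a minimal *Col1a2* promoter with an enhancer, so any cell in which these elements are active can lose the gene, and cells in which Cre did not act keep it. Controls without Cre do not show what Cre itself does. The comparison asks how the RNA of these 10 genes differs when fibroblasts lose their own TGFβ1.

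Each value is a normalised count, which is the number of reads on a gene divided by a size factor of its library. The reads on the listed genes summed to 21806579, 18103121, 16988998 and 19705522 in control replicates 1 to 4 and to 19035441, 18849394, 23071528 and 17445002 in TGFβ1FKO replicates 1 to 4. No library of the 8 had fewer than 598 reads on any of the 10 genes. Pairs of libraries within a group differed by more than sampling noise, with a chi-square per degree of freedom of 5.14 to 21.0. As neither the labels nor the methods of the study say that the libraries came from separate mice, p-values measure the spread between these libraries, part of which may be technical.

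*Tgfb1*, the deleted gene, had normalised counts of 1401, 1298, 1483 and 1314 in the control libraries and of 326.4, 259.9, 228.4 and 294.7 in the TGFβ1FKO libraries. Every TGFβ1FKO library lay far below every control library, and 20.2% of the control mean was left. The log2 fold change was -2.31 (limma with Benjamini-Hochberg adjustment, adjusted p = 1.53e-07), and the two-sided exact permutation test gave p = 0.029, the smallest that 4 libraries against 4 allow. In such bulk cultures, fewer cells of a type and less RNA per cell cannot be told apart.

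Collagen chains are modified inside the endoplasmic reticulum before the triple helix closes. Prolyl 4-hydroxylases form the hydroxyproline that keeps the helix stable at body temperature, lysyl hydroxylases form hydroxylysine, and HSP47 binds the folded procollagen on its way to the Golgi. Outside the cell, lysyl oxidases turn lysine and hydroxylysine side chains into aldehydes from which the cross-links of collagen and elastin form, and in fibrosis these cross-links make the matrix stiffer and harder to break down. TGFβ1 is known as an inducer of several of these genes in fibroblasts.

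The 10 genes spanned a wide range of levels in these cells. Levels of different genes were compared as reads per kilobase of exon in a library scaled to 1000000 reads, called level per length here. On this scale *Serpinh1* was the highest, with a mean of 1138 over the 8 libraries and rank 15 among 15098 genes with a known length. *Lox*, the founding lysyl oxidase, followed with 597.1 and rank 45, *Loxl1*, which is needed for elastic fibres, with 192.0 and *Loxl2*, which acts on collagen IV among other substrates, with 144.6. The libraries of each of these 4 genes did not overlap with those of the next in the order. *Plod1* at 39.95, *P4ha1* at 34.96, *Loxl3* at 28.9 and *P4ha2* at 22.8 formed a middle group in which the range of each gene overlapped with that of its neighbour. *Loxl4* at 9.18 and *Plod2* at 7.92 were the lowest, and their ranges overlapped too. The highest of the 10 mean levels was 143.7 times the lowest.

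**Figure D1:**
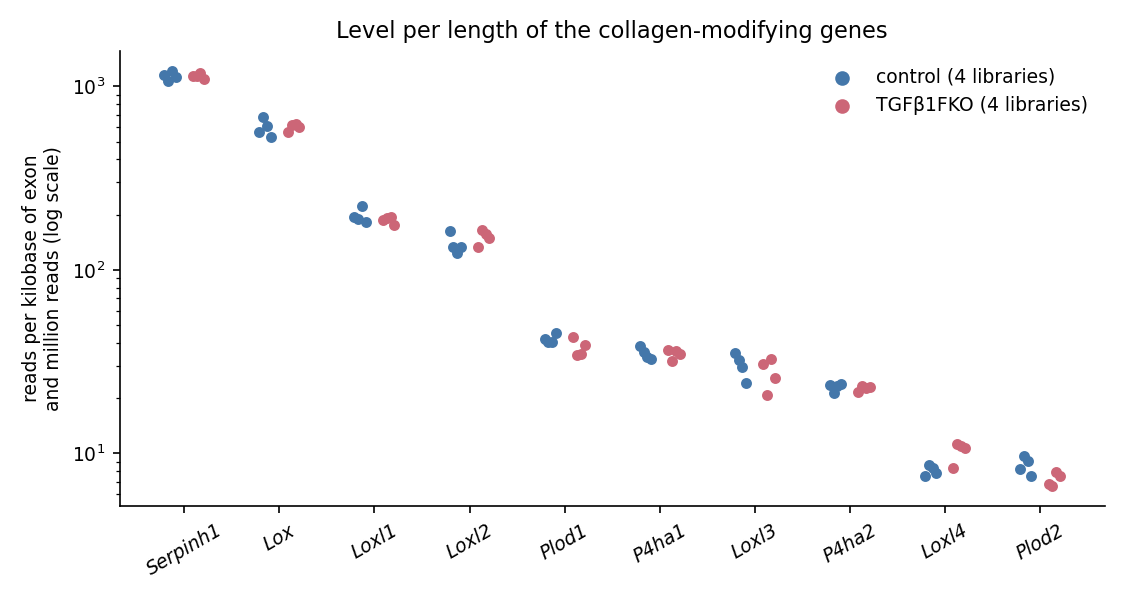
Level per length of the 10 genes (reads per kilobase of exon in a library scaled to 1000000 reads, log axis) in each of 4 control and 4 TGFβ1FKO libraries, in the order of the mean. Each point is 1 library; *Serpinh1* lay between 1073 and 1205 and *Plod2* between 6.66 and 9.62.

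No difference between genotypes in these 10 genes passed the thresholds of the test. On log2(normalised count + 1), 5 of the 10 were higher and 5 lower in TGFβ1FKO fibroblasts, and their median difference was 0.003 on the log2 scale, as was the median over all genes. In limma's test with Benjamini-Hochberg adjustment over all genes, 0 of the 10 passed an adjusted p under 0.05 with an absolute log2 fold change over 0.6, as 13 genes of the table did (0.086%). An unadjusted p under 0.05 was reached by 2 of the 10, *Loxl4* and *Plod2*, against 7.46% of all genes. The tests of edgeR and DESeq2 on whole reads also called 0 of the 10, where they called 20 and 56 genes of the table. Each gave 2 of the 10 at an unadjusted p under 0.05, beside 7.46% and 6.58% of all genes. The control and TGFβ1FKO libraries overlapped in all 10, whereas 3.79% of all genes had groups without overlap.

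The 95% intervals of the log2 fold change bound what these libraries leave possible. For 10 of the 10 genes the interval lay between -0.6 and 0.6, that is, within a 1.52-fold difference in either direction, as it did for 72.2% of all genes and for 98.3% of the 6299 genes with a mean count of at least 500. The lowest bound was -0.41, shared by *Loxl3* and *Plod2*, and the highest was 0.56, of *Loxl4*. For 5 genes, *Lox*, *Loxl1*, *P4ha1*, *P4ha2* and *Serpinh1*, the interval lay within 0.3 on either side of 0. The standard errors ran from 0.05 for *P4ha2* to 0.13 for *Loxl3*, and the median over all genes was 0.10. The number of called genes in the table was less steady than these values. Leaving out control replicates 1, 2, 3 or 4 gave 7, 6, 5 and 32 called genes, and leaving out TGFβ1FKO replicate 2 or TGFβ1FKO replicate 4 gave 5, but 0 of the 10 genes were called in any of these fits.

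**Figure D2:**
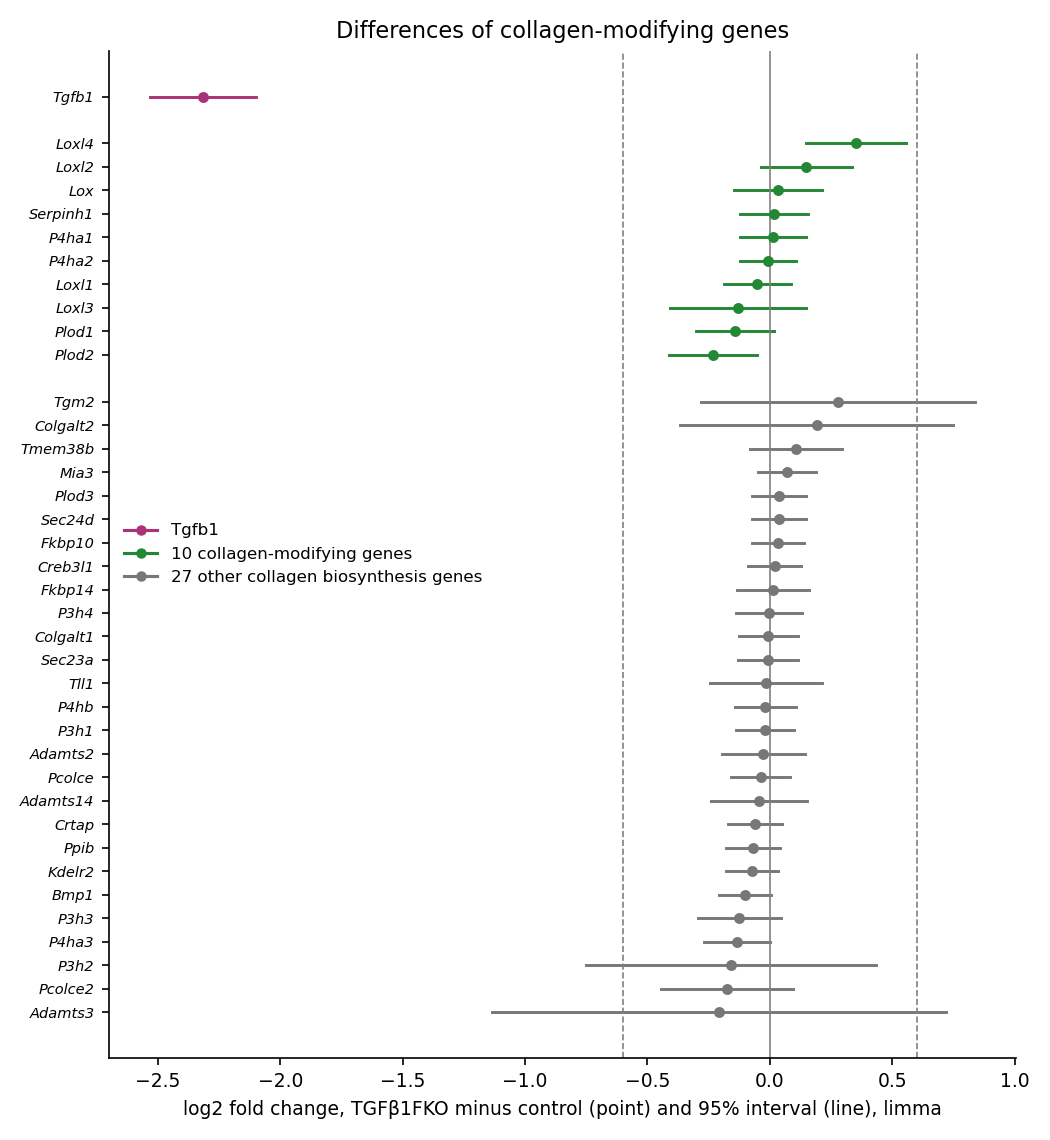
Log2 fold change (TGFβ1FKO minus control, points) with its 95% interval (lines) from limma for *Tgfb1*, the 10 collagen-modifying genes and 27 other collagen biosynthesis genes; dashed lines mark -0.6 and 0.6. *Tgfb1* lies at -2.31, and the intervals of the 10 genes stay between -0.41 and 0.56.

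Lysyl oxidases start the cross-linking. *Lox* (ENSMUSG00000024529) had normalised counts of 50559, 62277, 54933 and 49048 in the control libraries and of 51848, 57424, 56736 and 55340 in the TGFβ1FKO libraries. The highest and the lowest value both came from controls, and the TGFβ1FKO libraries lay inside the control range. The means were 54204 ± 5932 (SD, n = 4) and 55337 ± 2482 (SD, n = 4), a log2 fold change of 0.03 with a 95% interval from -0.14 to 0.21 (limma with Benjamini-Hochberg adjustment, adjusted p = 0.948).

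*Loxl1* (ENSMUSG00000032334) had normalised counts of 12053, 11984, 13792 and 11638 in controls and of 11887, 12349, 12270 and 11190 in TGFβ1FKO fibroblasts. Control replicate 3 was the highest of the 8 libraries, TGFβ1FKO replicate 4 was the lowest, and the others overlapped. Its log2 fold change was -0.05, with a 95% interval from -0.19 to 0.09. *Loxl2* (ENSMUSG00000034205) had 16450, 13927, 12533 and 14057 in controls and 13933, 17426, 16173 and 15545 in TGFβ1FKO fibroblasts. TGFβ1FKO replicates 2, 3 and 4 lay above 3 of the 4 controls, but control replicate 1 was above 2 of them. The mean was 10.7% higher, with a log2 fold change of 0.15 and a 95% interval from -0.04 to 0.34 (limma with Benjamini-Hochberg adjustment, adjusted p = 0.722). Without control replicate 3 the log2 fold change of *Loxl2* was 0.09.

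*Loxl3* (ENSMUSG00000000693), a lysyl oxidase that is needed for palate and spine development, was the most variable of the 10. Its normalised counts were 3052, 2854, 2569 and 2177 in controls and 2719, 1873, 2886 and 2301 in TGFβ1FKO fibroblasts. TGFβ1FKO replicate 2 was the lowest of the 8 libraries, while the other TGFβ1FKO libraries were spread over the control range. The coefficients of variation were 14.3% and 18.5%, where counting alone would give 1.96%. Between groups *Loxl3* differed by -0.13 on the log2 scale, with a 95% interval from -0.41 to 0.15. With 1 library left out it lay between -0.22, without control replicate 4, and -0.010, without TGFβ1FKO replicate 2. *Loxl3* shares 535 bases, 11.6% of its exons, with *Htra2* on the opposite strand, which had 7358 reads over the libraries, and as the libraries were not directional, reads from the shared stretch cannot be assigned to a strand. *Loxl2* likewise shares 301 bases with an antisense gene, *Gm27177*, that was not analysed here.

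*Loxl4* (ENSMUSG00000025185) on chromosome 19 differed most of the 10. Its normalised counts were 597.0, 703.4, 663.1 and 642.0 in the control libraries and 674.1, 921.7, 879.4 and 867.5 in the TGFβ1FKO libraries. TGFβ1FKO replicates 2, 3 and 4 lay above all controls, whereas TGFβ1FKO replicate 1 lay below control replicate 2 and so made the groups overlap. The mean was 651.4 ± 44.3 (SD, n = 4) in controls and 835.7 ± 110.2 (SD, n = 4) in TGFβ1FKO fibroblasts, which is 28.3% more. On the log2 scale the difference was 0.35 ± 0.09 (standard error), with a 95% interval from 0.15 to 0.56. The unadjusted p was 0.00268 and the adjusted p 0.415 (limma with Benjamini-Hochberg adjustment), and the two-sided exact permutation test gave p = 0.0571. Without TGFβ1FKO replicate 1 the log2 fold change was 0.45 and the adjusted p 0.0474 (limma with Benjamini-Hochberg adjustment), still under the fold change of a call. Over the alternatives tried the adjusted p ran from 0.0474 to 1.

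Promoter sequences from RefSeq on GRCm38.p6 were examined for 5 of the 10 genes, *Loxl4*, *Plod1*, *P4ha1*, *P4ha2* and *Serpinh1*. The 250 bases before the start are given for an oxidase, a hydroxylase and the chaperone: *Loxl4*, with the largest difference (chr19:42612807-42613056, minus strand), *P4ha1*, which hypoxia is known to induce (chr10:59323046-59323295, plus strand), and *Serpinh1*, with the highest level (chr7:99353240-99353489, minus strand). Each is read 5′ to 3′ on the strand of its gene, and capitals mark the letters CAGAC, the core of SMAD boxes through which TGFβ signals reach DNA, or ACGTG, the core of hypoxia response elements, on either strand.
Loxl4: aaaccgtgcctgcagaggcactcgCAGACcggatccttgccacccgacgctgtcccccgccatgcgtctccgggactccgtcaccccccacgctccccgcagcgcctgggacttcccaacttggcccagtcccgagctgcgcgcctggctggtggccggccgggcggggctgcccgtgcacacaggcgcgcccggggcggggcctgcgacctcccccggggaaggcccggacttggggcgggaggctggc
P4ha1: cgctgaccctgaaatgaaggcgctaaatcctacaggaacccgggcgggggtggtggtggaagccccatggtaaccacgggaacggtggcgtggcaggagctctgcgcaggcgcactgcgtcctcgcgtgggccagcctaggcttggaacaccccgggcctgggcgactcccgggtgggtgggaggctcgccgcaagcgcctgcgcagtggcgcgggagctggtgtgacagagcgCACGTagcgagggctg
Serpinh1: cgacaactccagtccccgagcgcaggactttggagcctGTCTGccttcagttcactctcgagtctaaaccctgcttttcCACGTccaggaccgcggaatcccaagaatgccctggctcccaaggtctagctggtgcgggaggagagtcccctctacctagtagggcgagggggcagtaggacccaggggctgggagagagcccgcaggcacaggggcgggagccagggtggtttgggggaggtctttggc
*Loxl4* holds 1 CAGAC, 226 bases before its start, and no ACGTG. *P4ha1* holds 1 ACGTG, on the minus strand of the window and 16 bases before the start. *Serpinh1* holds 1 of each, CAGAC at 212 and ACGTG at 171 bases before the start. *Plod1* holds 1 CAGAC and *P4ha2* 1 ACGTG in the same window. CAGAC occurs in 42.2% and ACGTG in 16.6% of 32851 mouse promoters of this length, and a match only says that these letters are there.

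As shares of the summed level per length of the 5 lysyl oxidases, *Lox* made up 61.3% ± 2.77 (SD, n = 4) in controls and 61.5% ± 0.644 (SD, n = 4) in TGFβ1FKO fibroblasts. *Loxl1* made up 20.4% and 19.2%, *Loxl2* 14.3% and 15.5%, and *Loxl3* 3.13% and 2.83%. The order of the 5 was thus the same in both groups, although with no division by length *Loxl2* came before *Loxl1*, with 17.0% and 14.7% in controls, and in these 4 shares the groups overlapped. *Loxl4* made up 0.784%, 0.833%, 0.841% and 0.895% in the control libraries and 0.900%, 1.12%, 1.07% and 1.11% in the TGFβ1FKO libraries. It was the 1 share of the 5 in which the groups did not overlap, with control replicate 4 and TGFβ1FKO replicate 1 close to each other. The shares were not tested, since they use the same counts as the gene by gene comparison. The ratio of *Loxl4* to *Loxl2* overlapped between groups, with 5.95 ± 0.942 (SD, n = 4) and 6.78 ± 0.413 (SD, n = 4) *Loxl4* per 100 *Loxl2*.

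**Figure D3:**
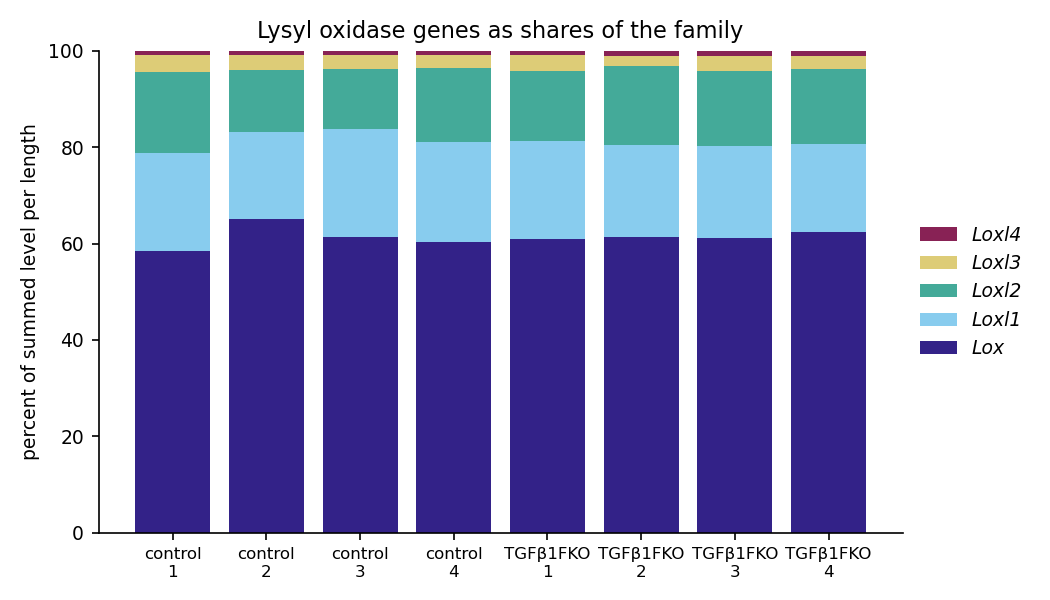
Stacked bars give each lysyl oxidase gene as percent of the summed level per length of the family in each library. *Lox* takes 58.5% to 65.1% of the control libraries and 61.0% to 62.4% of the TGFβ1FKO libraries, and the thin *Loxl4* segment at the top reaches at most 1.12%.

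Lysyl hydroxylases decide which kind of cross-link can form, and *Plod2* encodes the enzyme for the ends of the collagen chains, the telopeptides, whose hydroxylation is raised in fibrotic tissue. *Plod2* (ENSMUSG00000032374) had normalised counts of 833.6, 997.7, 921.5 and 788.1 in the control libraries and of 705.5, 701.1, 818.7 and 784.4 in the TGFβ1FKO libraries. TGFβ1FKO replicates 1, 2 and 4 lay below all controls, the last of them just under control replicate 4, and TGFβ1FKO replicate 3 lay within the control range. The mean was 885.2 ± 93.2 (SD, n = 4) in controls and 752.4 ± 58.5 (SD, n = 4) in TGFβ1FKO fibroblasts, which is 85.0% of control. On the log2 scale the difference was -0.23 ± 0.08 (standard error), with a 95% interval from -0.41 to -0.05. The unadjusted p was 0.0157 and the adjusted p 0.592 (limma with Benjamini-Hochberg adjustment), and the two-sided exact permutation test gave p = 0.0571. *Plod2* shares 346 bases, 6.42% of its exons, with *Gm38391* on the opposite strand, which had only 103 reads.

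*Plod1* (ENSMUSG00000019055) encodes the enzyme for lysines within the helix. Its normalised counts were 5308, 5282, 5176 and 5994 in controls and 5588, 4562, 4512 and 5085 in TGFβ1FKO fibroblasts. Control replicate 4 stood above the other controls, and TGFβ1FKO replicates 2, 3 and 4 lay below all controls while TGFβ1FKO replicate 1 was above 3 of them. *Plod1* differed by -0.14 on the log2 scale, with a 95% interval from -0.30 to 0.02 (limma with Benjamini-Hochberg adjustment, adjusted p = 0.689). The ratio of *Plod2* to *Plod1* overlapped between groups. By level per length it was 20.6 ± 3.18 (SD, n = 4) *Plod2* per 100 *Plod1* in controls and 19.3 ± 2.83 (SD, n = 4) in TGFβ1FKO fibroblasts. *Plod3*, the remaining gene of the family, which also adds sugars to hydroxylysine, was picked out after its values had been seen. Its level per length of 62.4 was above that of *Plod1*, and its log2 fold change was 0.04.

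**Figure D4:**
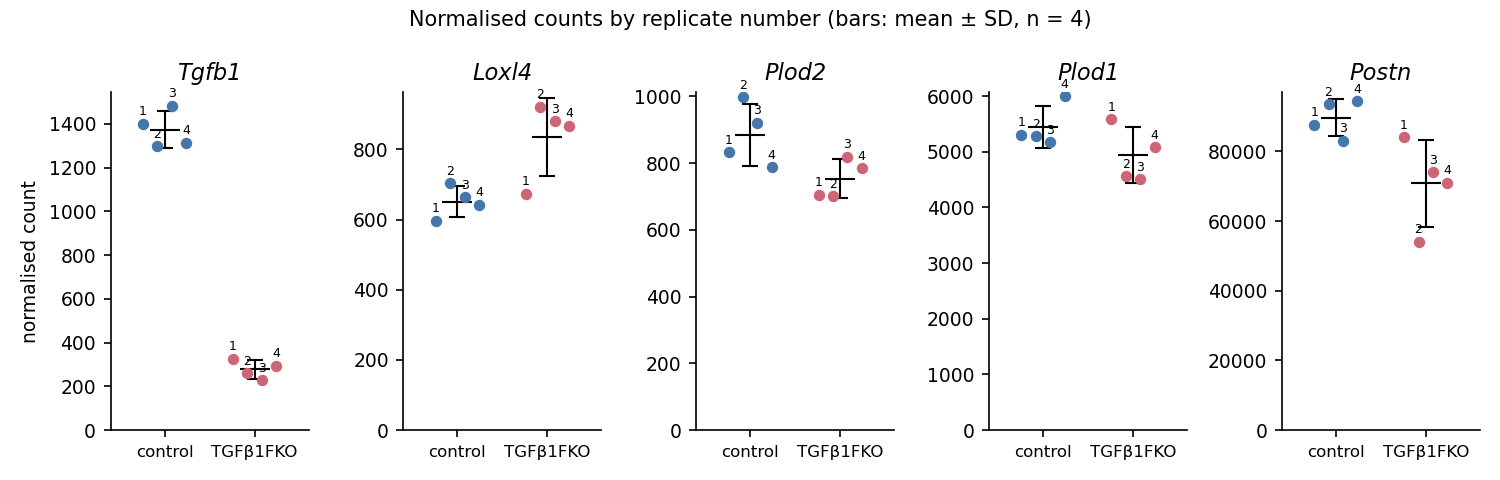
Normalised counts of *Tgfb1*, *Loxl4*, *Plod2*, *Plod1* and *Postn* in each library, with the replicate number at each point and the mean ± SD of 4 libraries in black. TGFβ1FKO replicate 1 lies at 674.1 for *Loxl4*, 5588 for *Plod1* and 84102 for *Postn*, each within the control range, and at 326.4 for *Tgfb1*, well below it.

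Prolyl 4-hydroxylase is built from a catalytic alpha subunit, encoded by *P4ha1*, *P4ha2* or *P4ha3*, and the beta subunit protein disulphide isomerase, encoded by *P4hb*. *P4ha1* (ENSMUSG00000019916) had normalised counts of 2983, 2814, 2592 and 2605 in controls and of 2907, 2548, 2852 and 2779 in TGFβ1FKO fibroblasts. *P4ha2* (ENSMUSG00000018906) had 2767, 2556, 2746 and 2884 in controls and 2600, 2838, 2697 and 2758 in TGFβ1FKO fibroblasts. In both genes the groups overlapped almost completely. *P4ha1* had a log2 fold change of 0.01 with a 95% interval from -0.12 to 0.15, and *P4ha2* of -0.01 with a 95% interval from -0.12 to 0.11. *P4ha2* also had the highest adjusted p of the 10, 0.988 (limma with Benjamini-Hochberg adjustment), and a two-sided exact permutation p of 0.857. *P4ha1* stood at 152.7 ± 14.8 (SD, n = 4) per 100 *P4ha2* by level per length in controls and at 154.7 ± 14.2 (SD, n = 4) in TGFβ1FKO fibroblasts, and the groups overlapped. By normalised counts, with no division by length, these ratios were 100.7 and 102.0. *P4ha3*, also picked out after its values had been seen, had a level per length of 29.96 and a log2 fold change of -0.13.

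*Serpinh1* (ENSMUSG00000070436) was the steadiest of the 10. Its normalised counts were 53005, 50420, 55466 and 53313 in the control libraries and 53695, 54046, 55240 and 51727 in the TGFβ1FKO libraries. All TGFβ1FKO libraries lay inside the control range. The coefficients of variation were 3.90% and 2.72%, the lowest of the 10 in both groups, and counting alone would give 0.431%. The means were 53051 ± 2068 (SD, n = 4) and 53677 ± 1459 (SD, n = 4), with a log2 fold change of 0.02 and a 95% interval from -0.12 to 0.16. Set against its main client, the chaperone stood at 21.9 ± 1.69 (SD, n = 4) per 100 *Col1a1* by level per length in controls and at 21.7 ± 1.31 (SD, n = 4) in TGFβ1FKO fibroblasts. For *Lox* the same ratio was 11.5 ± 1.78 (SD, n = 4) and 11.5 ± 0.802 (SD, n = 4). With no division by length, *Serpinh1* stood at 8.15 and 8.09 and *Lox* at 8.36 and 8.34 per 100 *Col1a1*, so that the order of these genes turned.

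**Figure D5:**
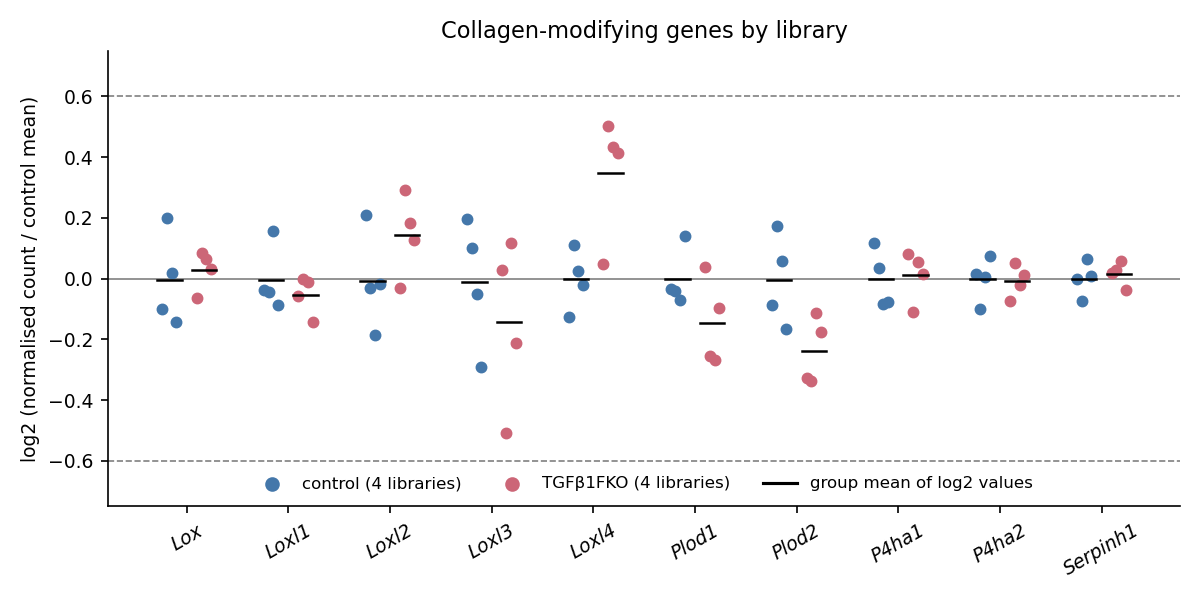
Log2 of the normalised count over the control mean for the 10 genes in each of 4 control and 4 TGFβ1FKO libraries; black lines are group means and dashed lines mark -0.6 and 0.6. No point passes the dashed lines; the TGFβ1FKO points of *Loxl4* sit highest, apart from replicate 1, and those of *Serpinh1* lie closest together.

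Other genes of collagen biosynthesis formed a list of 28. Of these, 27 were measured, and *Tll2* was not analysed here. Limma, edgeR and DESeq2 each called 0 of the 27. An unadjusted p under 0.05 was reached by 0, 0 and 1 of them, beside 7.46%, 7.46% and 6.58% of all genes. Of the 27, 18 were lower and 9 higher in TGFβ1FKO fibroblasts, and the median difference was -0.02 on the log2 scale beside 0.003 for all genes. *P4hb*, the most abundant by level per length, had a log2 fold change of -0.02. *Bmp1*, the protease that removes the C-propeptide of procollagen and activates LOX protein, was the 1 gene of the 27 whose groups did not overlap, against 3.79% of all genes. Its normalised counts were 13774, 13431, 13965 and 13143 in controls and 13121, 12546, 12355 and 12541 in TGFβ1FKO fibroblasts. The lowest control lay just above the highest TGFβ1FKO library, and the mean was 93.1% of control. For *Bmp1* the log2 fold change was -0.10, with an unadjusted p of 0.0562 (limma with Benjamini-Hochberg adjustment, adjusted p = 0.671). edgeR gave it an unadjusted p of 0.0586. In the test of DESeq2, *Bmp1* was the 1 gene counted above, with an unadjusted p of 0.0249 and an adjusted p of 0.629.

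Genes that hold lysyl oxidases in place or supply their copper formed a list of 11, which includes *Bmp1*. In limma's test 0 of the 11 were called and 2 had an unadjusted p under 0.05, while edgeR and DESeq2 called 0 with 3 and 4 at an unadjusted p under 0.05. Over all genes that p was reached by 7.46% with limma, 7.46% with edgeR and 6.58% with DESeq2. *Postn*, whose protein periostin brings BMP1 to the matrix, had normalised counts of 87640, 93556, 83086 and 94413 in controls and of 84102, 54086, 74104 and 71049 in TGFβ1FKO fibroblasts. TGFβ1FKO replicates 2, 3 and 4 lay below all controls, and TGFβ1FKO replicate 1 lay among them. *Postn* differed by -0.36 on the log2 scale (limma with Benjamini-Hochberg adjustment, adjusted p = 0.536). *Fmod*, for fibromodulin, which binds lysyl oxidase and collagen, differed by 0.19 on the log2 scale (limma with Benjamini-Hochberg adjustment, adjusted p = 0.647), and *Thbs1*, the most abundant of the list, by 0.21. For *Thbs1* the unadjusted p was 0.0971 with limma, 0.0423 with edgeR and 0.0245 with DESeq2. TGFβ1FKO replicate 1 was the TGFβ1FKO library nearest to the control mean in *Loxl4*, *Plod1*, *Postn*, *Fmod* and *Thbs1*, which were picked out after their values had been seen. The nearest was not always this library. It was replicate 3 in *Plod2*, replicate 4 in *Lox* and replicate 2 in *Pmepa1*, a gene of the TGFβ list below.

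The substrates were measured as well. Of 10 fibrillar collagen and elastin genes, limma, edgeR and DESeq2 each called 0. An unadjusted p under 0.05 was reached by 0, 1 and 0 of them, beside 7.46%, 7.46% and 6.58% of all genes. *Col1a1*, the most abundant, had a log2 fold change of 0.03. *Eln*, for elastin, differed most of the 10 and was picked out after its values had been seen. Its normalised counts were 147.1, 283.7, 444.6 and 188.6 in controls and 182.5, 180.2, 127.0 and 170.6 in TGFβ1FKO fibroblasts. Control replicates 2 and 3 were the highest, and control replicate 1 lay among the TGFβ1FKO libraries. *Eln* differed by -0.57 on the log2 scale, with a 95% interval from -1.15 to 0.01 and an unadjusted p of 0.0534 (limma with Benjamini-Hochberg adjustment, adjusted p = 0.671). In the test of edgeR, *Eln* was the 1 gene counted above, with a log2 fold change of -0.68, an unadjusted p of 0.0285 and an adjusted p of 0.631. DESeq2 gave it an unadjusted p of 0.0655. Several of the collagen-modifying genes are known to respond to hypoxia, and of 16 hypoxia-responsive genes 15 were measured, without *Ankrd37*. Limma, edgeR and DESeq2 each called 0 of the 15. An unadjusted p under 0.05 was reached by 0 in each test, beside 7.46%, 7.46% and 6.58% of all genes. Of the 15, 9 were lower and 6 higher, and their median was -0.002 on the log2 scale beside 0.003 for all genes. The most abundant, *Aldoa*, had a log2 fold change of 0.04. Of 11 measured genes known to respond to TGFβ in fibroblasts, limma, edgeR and DESeq2 each called 0 with 3 at an unadjusted p under 0.05, beside 7.46%, 7.46% and 6.58% of all genes. In limma's test these were *Postn*, *Acta2*, the most abundant of the list, with a log2 fold change of 0.19, and *Pmepa1* with -0.16. *Pmepa1* was the 1 gene of that list whose groups did not overlap, against 3.79% of all genes, and the median of the list was -0.04.

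Over the 8 libraries, the genes whose log2 values ran most like those of *Lox* among 11560 genes with a mean count of at least 50 were *Rasgrp3*, *Lca5* and *Gnpda2*, with Pearson's r of 0.973, 0.962 and 0.959 and Spearman's rho of 0.857, 1 and 0.857. For *Plod2* they were *Thsd1*, *Id1* and *Pop4*, with r of 0.951, 0.942 and 0.941 and rho of 0.952, 0.905 and 0.810. For *Serpinh1* they were *Cd82*, *Ubl4a* and *Fxr2*, with r of 0.976, 0.922 and 0.919 and rho of 1, 0.857 and 0.810. Without the pair of libraries farthest from the median of the gene in question, r lay between 0.768 and 0.971 for these 9 genes. They are the highest of 11560 values over 8 libraries, which share depth and culture with the gene in question, and are given as a description without a test.

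The label of the cells was compared with markers. All 10 fibroblast markers were measured, with *Col1a1* the most abundant, and their summed normalised count overlapped between groups. Markers of other cells were low beside them. *Sox10*, a marker of Schwann cells, had normalised counts of 132.5, 147.7, 207.4 and 72.1 in controls and of 19.3, 7.25, 18.3 and 21.1 in TGFβ1FKO fibroblasts. Every TGFβ1FKO library lay below every control library, with a log2 fold change of -3.01 (limma with Benjamini-Hochberg adjustment, adjusted p = 0.00499). The groups of *Erbb3* and *S100b*, which also mark these cells, did not overlap either, where 3.79% of all genes had groups without overlap. *Erbb3* and *S100b* differed by -2.56 and -0.76 on the log2 scale (limma with Benjamini-Hochberg adjustment, adjusted p = 0.0714 and 0.536). edgeR and DESeq2 called *Sox10* and *Erbb3* and did not call *S100b*. The 5 endothelial markers, of which *Tek* was the most abundant, summed to 628.0, 752.2, 659.8 and 511.6 in controls and to 505.8, 473.3, 496.6 and 475.3 in TGFβ1FKO fibroblasts, without overlap. All 5 were lower, but 0 were called by limma, edgeR or DESeq2, and 1, *Pecam1*, had an unadjusted p under 0.05 in each, where 7.46%, 7.46% and 6.58% of all genes did. Of 4 measured mural cell markers, *Myh11*, the most abundant, differed by 0.71 on the log2 scale (limma with Benjamini-Hochberg adjustment, adjusted p = 0.0649; called by edgeR and DESeq2) and *Cspg4* by -0.50, and the sum of the list overlapped between groups. The summed markers of macrophages, with *Ptprc* and *Adgre1* not analysed here, and of keratinocytes, with *Krt5*, *Krt14* and *Krt1* not analysed here, overlapped between groups as well, as did *Fabp4* for adipocytes and *Pmel* with *Mlana* for melanocytes. Skeletal muscle markers were not analysed here. Whether these other cells had a part in the differences of *Loxl4* and *Plod2* was not tested.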

How the data were processed

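RNA of 4 control and 4 TGFβ1FKO fibroblast cultures was compared, grouped by the genotype in the labels. Per the submitters' processing notes, CASAVA 1.8, HISAT2 2.0.5, featureCounts 1.5.0-p3, R 4.3.2 and DESeq2 1.42.0 were used, on GRCm38. The authors left out genes with low summed counts and deposited a signal per gene and library, the normalised count, which is reads divided by a size factor plus 0.5. The authors also deposited log2 fold changes, p-values and a test score of their own comparison, which were not used.

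The 0.5 was subtracted, which gave the normalised counts. Divided by the normalised count of 1 read in its library, 100% of the values of each library were whole reads (tolerance 0.1 reads). For limma 3.58.1 (mean-variance trend, two-sided) in R 4.3.3, 1 was added to the normalised counts and their log2 values were fitted. On the whole reads, edgeR 4.0.16 called 20 genes and DESeq2 1.42.0 called 56, where limma called 13. Each test was tested on simulated data. Lengths and positions are from GENCODE M21. The members and lists were chosen with earlier results of these data known. Named are all 10 genes, *Tgfb1*, genes of the lists with an unadjusted p under 0.05, without overlap or most abundant, and the 3 genes most like *Lox*, *Plod2* and *Serpinh1*, to which *Plod3*, *P4ha3* and *Eln* were added after their values had been seen. Some genes that this rule covers, and sums and counts that include them, are not reported here. Alternatives covered the test, scaling, pseudocount, a read filter, thresholds, ratios without division by length, a replicate block and each library left out.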

Additional observations from a re-analysis of the deposited data

Results flagged for a closer look

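In 2 of 52 groups of 4 libraries, 1 library lay far from the other 3, where chance alone gives about 1 in 20, or 2.6. *Plod1* had a normalised count of 5994 in control replicate 4, and the other controls lay between 5176 and 5308. *Serpinh1* per 100 *Col1a1* by level per length was 23.7 in TGFβ1FKO replicate 3, and the other TGFβ1FKO libraries lay between 20.9 and 21.2.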

How the results depend on the processing

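The 10 collagen-modifying genes were called in 0 of the alternatives, and of their 180 log2 fold changes in the alternatives 171 kept their direction and side of the threshold and 9 changed sign. The sign changes came when 1 library was left out, in genes with differences near 0. When each of the libraries was left out, the difference on the log2 scale ran from -0.011 to 0.10 for *Lox*, from -0.079 to 0.0030 for *Loxl1*, from -0.015 to 0.053 for *P4ha1*, from -0.040 to 0.018 for *P4ha2* and from -0.0068 to 0.039 for *Serpinh1*. Over all alternatives *Loxl4* stayed between 0.30 and 0.45, *Loxl2* between 0.09 and 0.22, *Loxl3* between -0.22 and -0.010, *Plod1* between -0.20 and -0.096 and *Plod2* between -0.29 and -0.17, and *Tgfb1* kept its call.

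The number of called genes in the whole table was 13. It was 20 with edgeR, 56 with DESeq2 against 0, 15 with DESeq2 against 0.6, 3 with at least 10 reads in every library, which left fewer genes (12946), 25 at an adjusted p under 0.1, and 5 to 32 with each library left out. Apart from the looser threshold, the cause was not tested. TMM scaling moved the median of all genes by -0.005.

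With the replicate number as a replicate block, 31 genes were called, 0 of them among the 10, and *Loxl4* had an adjusted p of 0.0994 (limma with Benjamini-Hochberg adjustment; 0.0474 to 1 over its alternatives). Deviations of libraries with the same number correlated at 0.156, -0.134, 0.052 and 0.159. Those of libraries with different numbers correlated at -0.319 to 0.387. So few values of mixed sign cannot decide whether the numbers pair the libraries.

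Counting error was at most 3.65% for any of the 10 genes, below the spread between libraries, and leaves out duplicates made by PCR.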
